A study of Capra hircus with 6 samples.

Results

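The genes described here are 44 cell division genes, read out in pools of RNA from the medio-basal hypothalamus of adult Alpine goats. They encode condensin subunits, mitotic kinases, kinetochore and spindle proteins, cyclins with their kinases and inhibitors, and the machinery of DNA replication. The list was drawn up with earlier results of these data known, those of NEK2 and SMC4 included. Its members were matched by symbol, and all 44 were found among the 28907 rows of the count table. Of the 44, 41 passed the filter on low counts and entered the test together with the other genes, 16756 in all. AURKA, AURKB and FOXM1 did not pass that filter and are given as counts.

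The groups compared were January goats before ovulation (follicular phase) and mid-May goats in anestrus, the season without ovarian cycles. Per the series' design text there were 18 goats, 5 of them follicular, 8 in anestrus and 5 luteal, and the luteal libraries were not analysed here. Each library was a random equimolar mix of RNA from goats of 1 condition, with 2 mixes (pools) per condition. The p-values therefore measure the spread between pools and not between goats. The composition of the pools is not given in the sources used here, so both pools of a condition may share animals. Sharing would make the pools more alike, and standard errors and p-values could then be too small. Season and ovarian state differ together between the groups, and their parts cannot be told apart.

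A dividing cell first licenses its origins of replication by loading the MCM helicase, then copies its DNA, and then condenses and separates the chromosomes on a spindle built by paired centrosomes. Cyclins bound to cyclin-dependent kinases (CDKs) drive each step, and inhibitors such as CDKN1A and CDKN1B hold it back. In the adult hypothalamus neurons no longer divide, whereas oligodendrocyte precursors, some tanycytes and cells of vessels and the immune system can. Several of these genes, among them the D-type cyclins and CDKN1B, are also active in cells that do not divide.

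The pools held 25292678 and 17090623 counts in the follicular phase and 14553821 and 17910056 in anestrus. Levels are in CPM, read counts scaled to a common library total after TMM normalization, and all differences are log2 fold changes, follicular minus anestrus, so that a negative value is a higher level in anestrus. Each is followed by its standard error, and a gene is called at an adjusted p under 0.05 in edgeR's quasi-likelihood test over all genes tested. All 9 neuron markers and all 8 tanycyte and ependyma markers passed the filter on low counts. So did 7 of 8 thyrotroph and pars tuberalis markers and 6 of 7 matched markers of other anterior pituitary hormone cells. Passing that filter is too weak a check to verify the tissue label. Neuron markers summed to 3972 and 4410 CPM in the follicular pools and to 3772 and 3114 CPM in the anestrus pools.

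NEK2 and SMC4 were higher in anestrus than in the follicular pools, and none of the other 39 tested members was called. NEK2, the kinase that dissolves the linker between centrosomes before mitosis, was 6.11-fold higher in anestrus, and SMC4, the ATPase subunit shared by condensin I and II, was 2.53-fold higher. The 2 called members make 4.88% of those tested, beside 0.203% of all genes tested, and since the list was made with both known, nothing is read from that difference. Both were higher in anestrus, the direction of 0.191% of all genes, and 0 members were called higher in the follicular phase, beside 0.0119% of all genes. At an unadjusted p under 0.05 there were 3 members, the third being PCNA, beside 8.55% of all genes.

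NEK2 was read from 32 and 19 counts in follicular pools 1 and 2, and from 83 and 157 counts in anestrus pools 1 and 2. These counts gave 1.26 and 1.104 CPM against 5.82 and 8.72 CPM. Both anestrus pools lay above both follicular pools, and the anestrus pools lay further apart than the follicular ones. The means were 1.18 ± 0.11 CPM and 7.27 ± 2.05 CPM (SD, n = 2 pools each). In bulk RNA fewer cells of a type and less RNA per cell cannot be told apart. The log2 fold change of NEK2 was -2.61 ± 0.41 (95% interval -3.52 to -1.71, adjusted p = 0.0402, edgeR). Its call was lost without follicular pool 1 (log2 fold change -2.70, adjusted p = 0.582) and in limma-voom (adjusted p = 0.0597), and was kept in the other 11 of 13 alternatives.

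SMC4 was at 46.2 and 52.6 CPM in the follicular pools and at 101 and 149 CPM in the anestrus pools, from 905 counts or more in each library. Here too every anestrus pool exceeded every follicular pool, and anestrus pool 2 was the highest. The means were 49.4 ± 4.51 CPM and 125 ± 33.6 CPM, and the log2 fold change was -1.34 ± 0.21 (95% interval -1.80 to -0.88, adjusted p = 0.0402, edgeR). The call of SMC4 was lost without follicular pool 1 (log2 fold change -1.23, adjusted p = 0.786) and kept in the other 12 alternatives. Leaving out anestrus pool 2 brought its log2 fold change to -0.99, and leaving out anestrus pool 1 to -1.59.

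**Figure D1:**
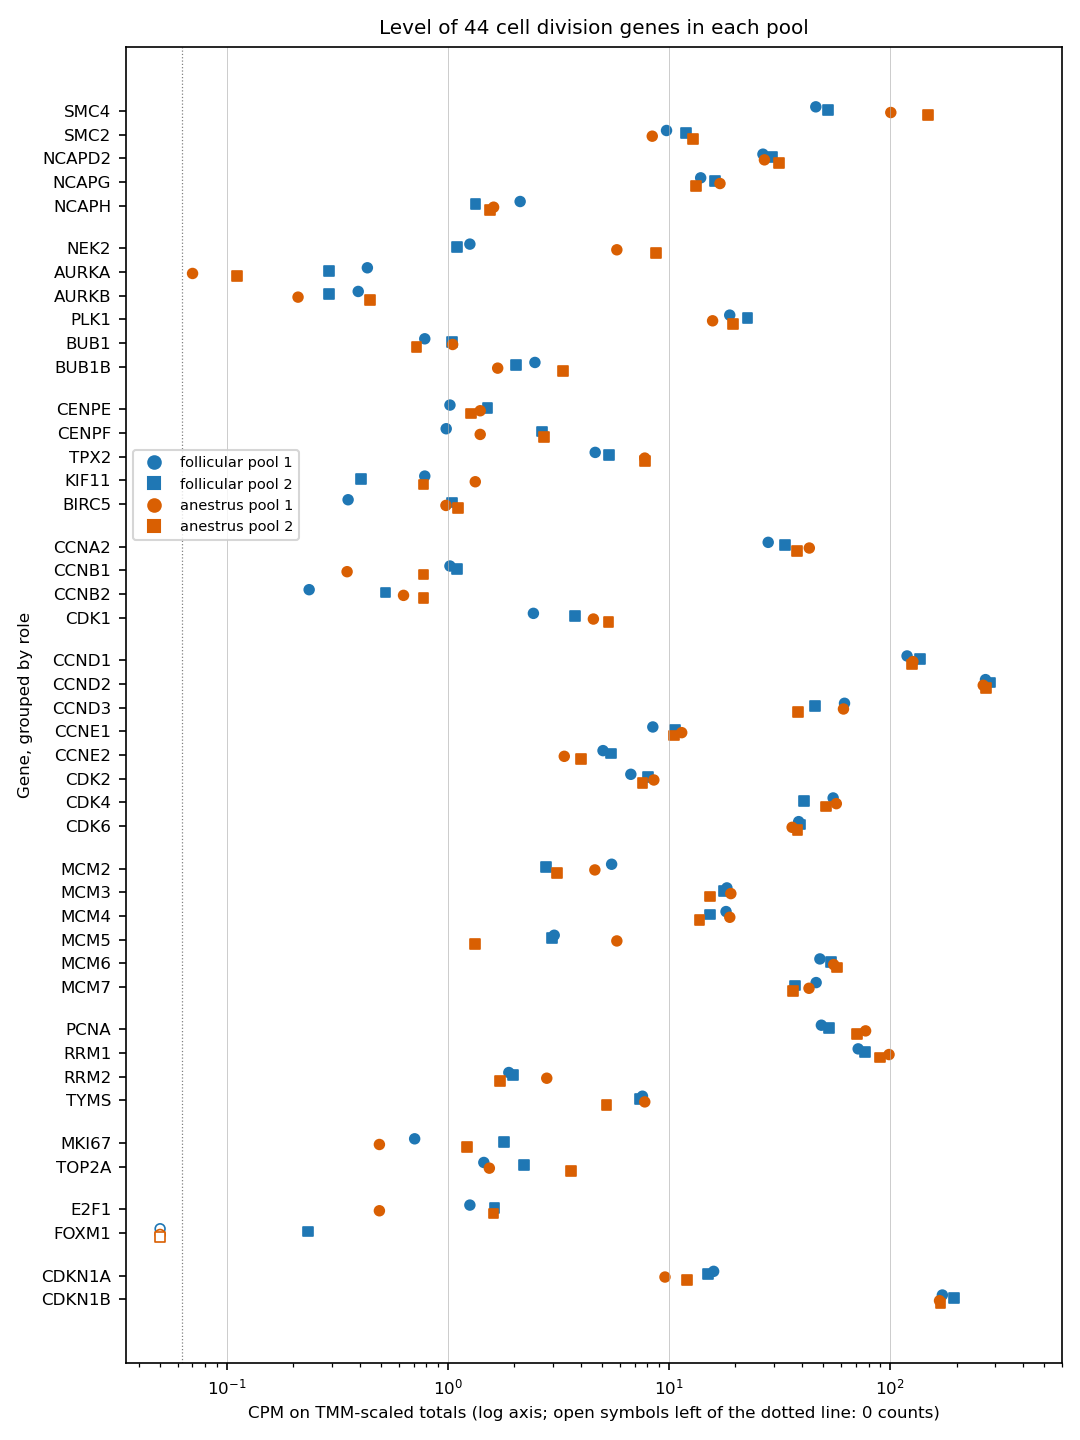
CPM of each of the 44 genes in the 4 pools, on a log axis, with genes grouped by role; blue is follicular, orange is anestrus, circles are pool 1 and squares pool 2, and open symbols at the left stand for 0 counts. The orange symbols of NEK2 (5.82 and 8.72 CPM) and SMC4 (101 and 149 CPM) stand clear of the blue ones, while for most other genes the colours mix.

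Condensin is a ring built on SMC2 and SMC4, to which condensin I adds NCAPD2, NCAPG and NCAPH. Of the 5 subunits only SMC4 was called, and the other 4 had log2 fold changes between -0.06 and 0.14. SMC2, the partner of SMC4 in the ring, was at 9.76 and 11.97 CPM in the follicular pools and at 8.41 and 12.8 CPM in the anestrus pools. The groups thus overlapped for SMC2, with a log2 fold change of 0.03 ± 0.31 (95% interval -0.67 to 0.72). NCAPD2 was at 26.6 and 29.5 CPM against 27.1 and 31.4 CPM, a log2 fold change of -0.06 ± 0.22. NCAPG lay between 13.3 and 17.0 CPM in all pools, and NCAPH, the kleisin subunit that closes the ring, between 1.34 and 2.12 CPM. For these 4 subunits the intervals reach from -0.95 to 1.23, so a change as large as that of SMC4 lies outside each of them on the side of anestrus.

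The ratio of SMC4 to SMC2 counts within a pool, in which library scaling cancels, was 4.73 and 4.39 in the follicular phase and 11.99 and 11.6 in anestrus. This ratio varied little between pools of a group, at 4.56 ± 0.24 and 11.8 ± 0.29 (SD, n = 2 pools each). Against NCAPD2 the SMC4 ratio was 1.73 and 1.79 in the follicular phase and 3.73 and 4.72 in anestrus. Against NCAPG it was 3.32 and 3.26 against 5.92 and 11.1, and against NCAPH 21.7 and 39.4 against 62.6 and 95.5. In all 4 ratios the groups were apart, with log2 differences from -1.40 to -1.25. With 2 pools against 2, the exact two-sided permutation test cannot give a p below 0.333, which is the value each of the 8 ratios examined for SMC4 and NEK2 had, before and after Benjamini-Hochberg adjustment.

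None of the other mitotic kinases tested was called. PLK1, the polo-like kinase of mitotic entry and spindle assembly, was at 18.9 and 22.7 CPM (follicular) against 15.8 and 19.5 CPM (anestrus), a difference of 0.23 ± 0.25. The checkpoint kinases BUB1 and BUB1B had 0.05 ± 0.58 and -0.16 ± 0.47, from 13 to 20 and 24 to 63 counts per library. The ratio of NEK2 to PLK1 counts was 0.0668 and 0.0487 (follicular) against 0.369 and 0.446 (anestrus). NEK2 relative to SMC4 also differed, at 0.0273 and 0.0210 against 0.0577 and 0.0587, so the fold difference of NEK2 was the larger in these pools. The Aurora kinases were barely detected. AURKA, the centrosomal Aurora kinase, had 11 and 5 counts (follicular) against 1 and 2 (anestrus), a rate ratio of 4.04 (95% counting interval 1.16 to 21.6, exact). AURKB, the kinase of the chromosome passenger complex, had 10 and 5 counts against 3 and 8, a ratio of 1.03 (0.443 to 2.49). These intervals cover counting error only and not the spread between pools.

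**Figure D2:**
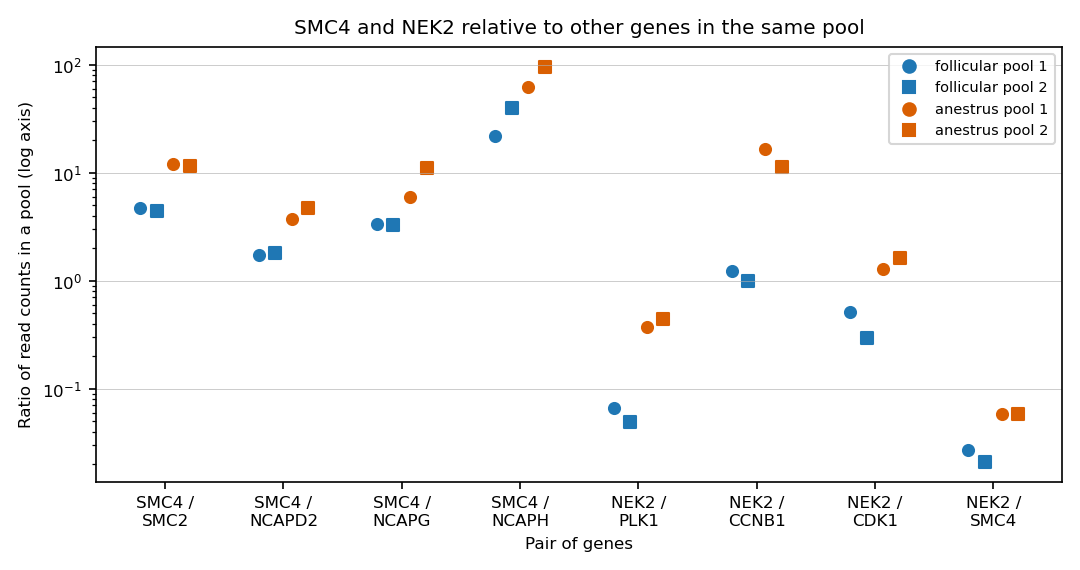
Ratio of the read counts of SMC4 or NEK2 to those of another gene in the same pool, on a log axis, for 8 pairs; blue is follicular, orange is anestrus, circles are pool 1 and squares pool 2. In every pair both orange symbols lie above both blue ones, as for SMC4 to SMC2 (11.99 and 11.6 above 4.73 and 4.39).

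Among kinetochore, spindle and passenger proteins 0 of 5 were called. All 5 had a negative log2 fold change, with a median of -0.63, beside negative values for 50.1% of all genes tested. TPX2, which activates Aurora A and nucleates spindle microtubules, was at 4.64 and 5.35 CPM (follicular) against 7.78 and 7.77 CPM (anestrus). Its groups did not overlap, and its log2 fold change was -0.64 ± 0.32 (adjusted p = 0.639, edgeR). The kinesin KIF11, which pushes spindle poles apart, had 20 and 7 counts against 19 and 14, and the passenger protein BIRC5 (survivin) 9 and 18 against 14 and 20. The motor CENPE and the kinetochore protein CENPF had log2 fold changes of -0.09 ± 0.52 and -0.21 ± 0.58, and the groups overlapped for both. Without follicular pool 1 CENPE, CENPF and BIRC5 had positive values, and CENPF also without anestrus pool 2.

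The mitotic cyclins and CDK1 gave 0 calls of 4 members, and in each of the 4 the groups did not overlap, as for 38.3% of all genes tested. CCNA2, the cyclin of S phase and mitotic entry, was at 28.1 and 33.5 CPM against 43.2 and 37.9 CPM in anestrus, with a log2 fold change of -0.39 ± 0.21 (adjusted p = 0.667, edgeR). CDK1, the kinase that drives mitosis, was at 2.44 and 3.78 CPM against 4.56 and 5.33 CPM, a log2 fold change of -0.68 ± 0.39. CCNB2 was likewise at the higher level in anestrus, with 6 and 9 counts against 9 and 14. CCNB1, the other B-type partner of CDK1, lay the opposite way, with 26 and 19 counts against 5 and 14 and a log2 fold change of 0.88 ± 0.62. The B-type cyclins thus had values of opposite sign, and the interval of each included 0.

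The cyclins and kinases of G1 and S phase had 0 of 8 called, log2 fold changes from -0.20 to 0.51 and a median of 0.03. CCND2, a D-type cyclin that activates CDK4 and CDK6, was at 270 and 284 CPM (follicular) against 264 and 272 CPM (anestrus), a difference of 0.05 ± 0.15 (95% interval -0.29 to 0.39). CCND1 was at 119 and 137 CPM against 127 and 126 CPM, with an interval from -0.34 to 0.38. For these cyclins the intervals leave room for less than a 1.31-fold difference in either direction. CCND3 differed more within the groups than between them, at 62.3 and 45.8 CPM against 61.6 and 38.4 CPM. CDK4 and CDK6 had log2 fold changes of -0.17 ± 0.20 and 0.07 ± 0.19, and CDK2, the partner of the E-type cyclins, -0.13 ± 0.31. The E-type cyclins CCNE1 and CCNE2 had -0.20 ± 0.29 and 0.51 ± 0.35. For CCNE2 the groups did not overlap, at 5.04 and 5.46 CPM against 3.37 and 3.997 CPM.

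The 6 subunits of the MCM2-7 helicase, which unwinds DNA at the replication fork, gave 0 calls and log2 fold changes from -0.24 to 0.12. MCM6 was at 48.2 and 54.0 CPM against 55.7 and 57.4 CPM, MCM7 at 46.4 and 37.2 against 43.0 and 36.5 CPM, and MCM3 at 18.3 and 17.7 against 19.1 and 15.3 CPM. Levels of MCM7 and MCM2 differed more between the pools of a group than between the groups. MCM2 had 5.51 and 2.79 CPM against 4.63 and 3.11 CPM. MCM5 had the widest spread, with 77 and 51 counts (follicular) against 83 and 24 (anestrus), and its log2 fold change of -0.24 ± 0.61 turned positive in 3 alternatives. MCM4 lay at 18.1 and 15.4 CPM against 18.9 and 13.8 CPM.

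Genes of DNA synthesis gave the member nearest to a call after NEK2 and SMC4. PCNA, the sliding clamp of the replicative polymerases, was at 49.0 and 53.2 CPM in the follicular pools and at 77.6 and 70.9 CPM in the anestrus pools. Its groups did not overlap, and the log2 fold change was -0.54 ± 0.17 (unadjusted p = 0.0102, adjusted p = 0.366, edgeR), between -0.60 and -0.46 over 13 alternatives with no call in any. RRM1, the large subunit of ribonucleotide reductase, was at 71.8 and 76.9 CPM against 99.0 and 90.2 CPM, a log2 fold change of -0.35 ± 0.16 (adjusted p = 0.610, edgeR). RRM2, the small subunit that is made in S phase, had 48 and 34 counts against 40 and 31, and its groups overlapped. TYMS, which makes thymidylate, had 0.21 ± 0.33 and lay at 7.60 and 7.38 CPM against 7.78 and 5.22 CPM.

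MKI67 and TOP2A, the usual markers of proliferating cells, were read from few counts. MKI67 (Ki-67) had 18 and 31 counts (follicular) against 7 and 22 (anestrus), and TOP2A, the topoisomerase that untangles chromosomes, had 37 and 38 against 22 and 65. For both the second pool of each group was the higher one in CPM, and the groups overlapped. The log2 fold changes were 0.49 ± 0.67 (95% interval -0.99 to 1.97) and -0.51 ± 0.52 (-1.66 to 0.63), so for TOP2A the interval still holds a difference of the size of SMC4. For MKI67 it ends short of that size on the side of anestrus. E2F1, the transcription factor that opens S phase, had 32 and 28 counts against 7 and 29. FOXM1, which drives mitotic genes, had 0 and 4 counts (follicular) and none in either anestrus pool, where a count of 0 allows up to 0.210 and 0.167 CPM.

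Both CDK inhibitors had values on the follicular side without passing the test. CDKN1A (p21), a target of p53, was at 15.9 and 14.99 CPM (follicular) against 9.604 and 12.1 CPM (anestrus), with 0.51 ± 0.28 (adjusted p = 0.681, edgeR). CDKN1B (p27) was at 173 and 195 CPM against 168 and 169 CPM, a log2 fold change of 0.13 ± 0.16. The groups did not overlap for either gene.

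**Figure D3:**
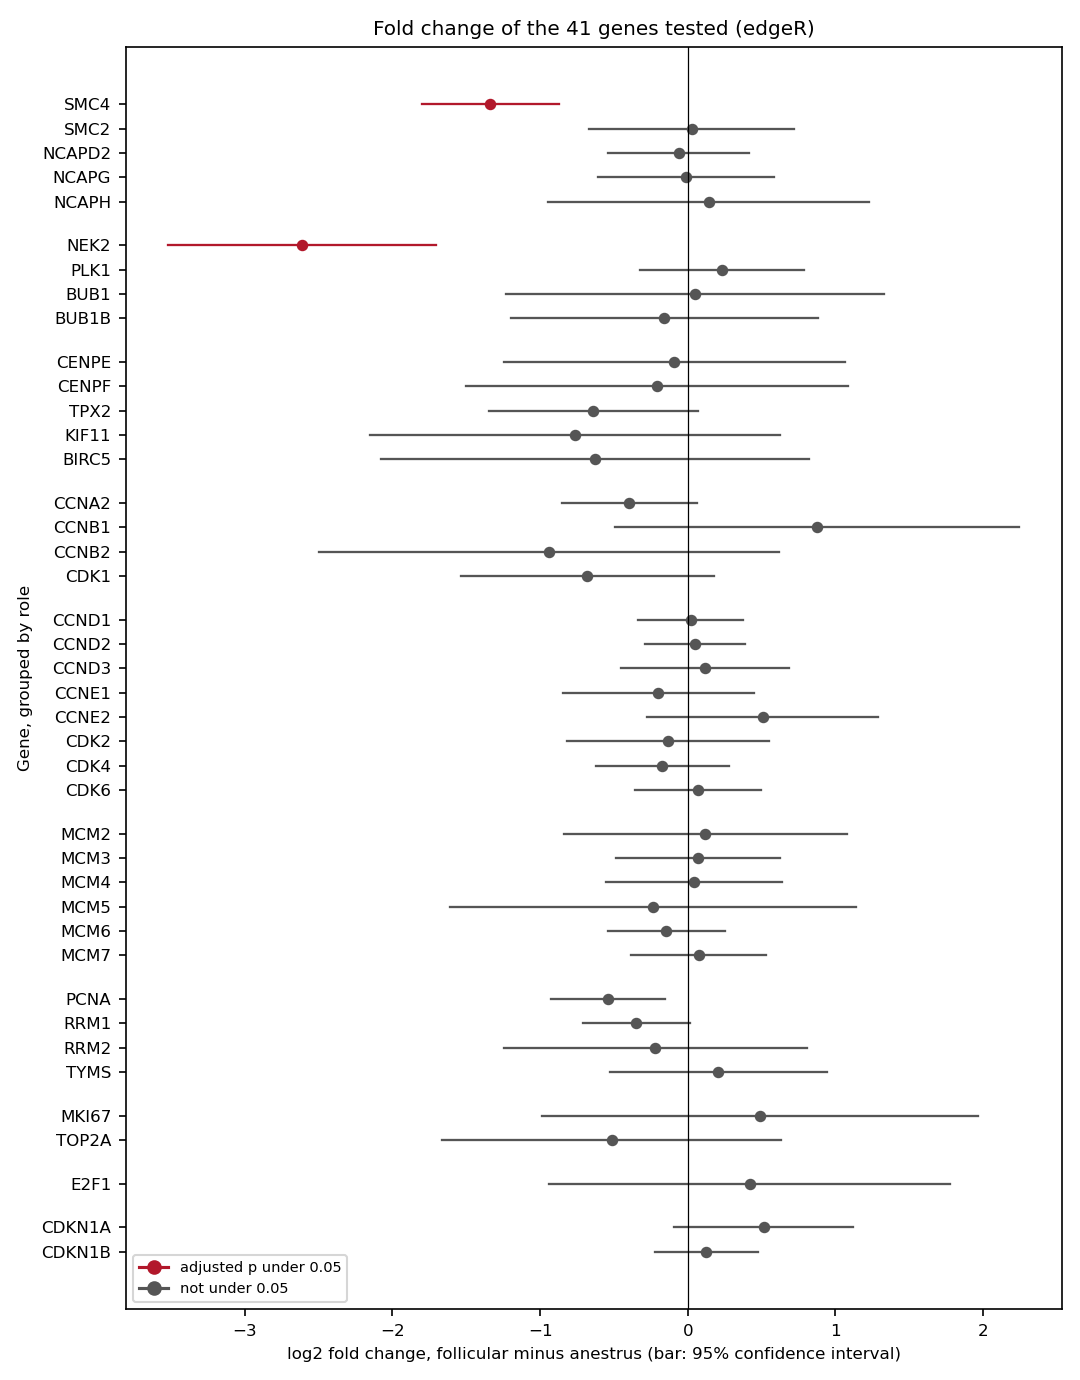
Log2 fold change (follicular minus anestrus) of the 41 tested genes, grouped by role, with bars for the 95% confidence interval; red marks an adjusted p under 0.05. NEK2 at -2.61 and SMC4 at -1.34 are the red points, and 29 of the 41 lie within 0.5 of 0.

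Over the 41 tested members the median log2 fold change was -0.06, beside -0.001 over all genes tested, with 19 positive and 22 negative values. The median changed sign without the count filter, to 0.01. The groups did not overlap for 14 members (34.15%), beside 38.3% of all genes tested. Of these, 9 had both anestrus pools higher, beside 20.7% of all genes, and 5 had both follicular pools higher. The share without overlap in either direction is near that of all genes and is no result about the cell division genes. Intervals had a median width of 1.39 on the log2 scale.

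**Figure D4:**
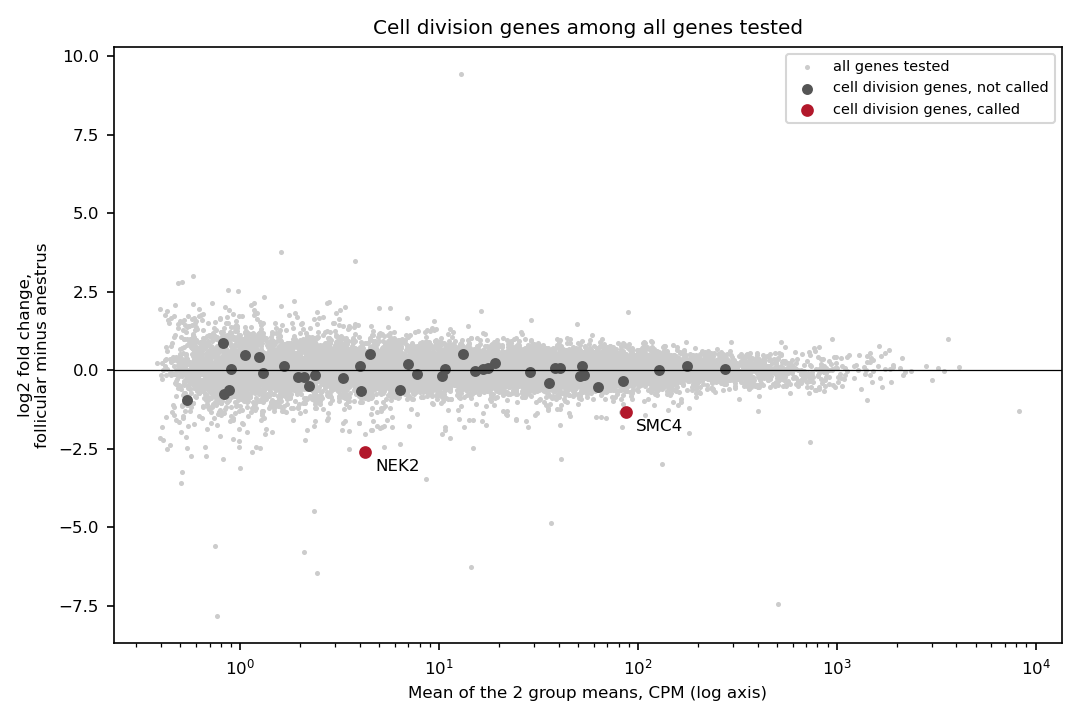
Log2 fold change (follicular minus anestrus) against the mean level in CPM (log axis) for the 16756 genes tested (light grey), with the uncalled cell division genes in dark grey and the called ones in red. NEK2 and SMC4 lie below the band of grey points at their level, and the other 39 lie within it.

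The other genes of the cell cycle, 168 matched of 170 listed in 10 groups, gave 0 calls among 154 tested in edgeR and in limma-voom, and 1 (ANLN) in DESeq2. With 1 pool left out, edgeR called up to 2 of them, among them GADD45A without follicular pool 2 or anestrus pool 1 and PDS5B without anestrus pool 2, both named here for these calls. In the edgeR fit on all 4 pools, 7 of the 154 had an unadjusted p under 0.05 (4.55%, beside 8.55% of all genes). A negative log2 fold change was found for 102 of 154 (66.2%, beside 50.1% of all genes), with a median of -0.08, and 66 (42.9%, beside 38.3% of all genes) had groups without overlap. Of these, 52 were higher in both anestrus pools (33.8% of those tested, beside 20.7% of all genes). The 10 other NEK kinases, which include the mitotic NEK6, NEK7 and NEK9, had log2 fold changes from -0.29 to 0.94 and none was called. The smallest p among them were those of NEK10 (0.65 ± 0.34) and NEK5 (0.94 ± 0.56), both on the follicular side, opposite to NEK2.

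Among the genes of the centrosome linker and centrosome duplication, 0 of 14 were called. STK3, the Hippo pathway kinase MST2 that acts on NEK2 at the centrosome, was at 29.2 and 30.5 CPM (follicular) against 48.3 and 45.9 CPM (anestrus). Its log2 fold change was -0.66 ± 0.19 (adjusted p = 0.311, edgeR), and the groups did not overlap. CEP250, the linker protein that NEK2 phosphorylates, lay the opposite way at 33.5 and 22.5 CPM against 18.4 and 19.5 CPM, with 0.56 ± 0.26. Of the other condensin and cohesin genes (16 tested, 0 called) the smallest p belonged to PDS5A and NIPBL, the regulators of cohesin, with -0.42 ± 0.17 and -0.40 ± 0.18.

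Origin licensing and firing genes (17 tested, 0 called) had 14 negative log2 fold changes and a median of -0.26. ORC5, of the origin recognition complex, had -0.50 ± 0.25, and GINS3 had -1.18 ± 0.64 from 8 to 17 counts per library. Replication fork genes (22 tested, 0 called) had 16 negative values, with -0.49 ± 0.19 for the clamp loader subunit RFC5, while UHRF1, which maintains DNA methylation behind the fork, had 0.78 ± 0.36. Kinetochore genes outside the members (12 tested, 0 called) had a median of -0.12, with -0.49 ± 0.31 for ZWILCH and -0.33 ± 0.34 for ZWINT. In the anaphase promoting complex and CDC25 group (16 tested, 0 called) the phosphatase CDC25C had -1.13 ± 0.485 and the complex subunit ANAPC4 -0.40 ± 0.19. E2F2 had 1.63 ± 0.69 from 22 and 15 counts against 3 and 6, and E2F5 -0.33 ± 0.20, in a group of E2F, RB and DREAM regulators with 0 of 16 called. Of the other inhibitors (13 tested, 0 called), CDKN2B had -0.79 ± 0.42 and CCNG1 -0.33 ± 0.16.

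ANLN, an actin-binding protein of the cleavage furrow that is also part of septin filaments in myelin, had the smallest p of the listed genes outside the 44. It was at 80.6 and 94.8 CPM (follicular) against 49.5 and 39.7 CPM (anestrus), a difference of 0.98 ± 0.19 (adjusted p = 0.103, edgeR). ANLN was called in DESeq2, without the count filter, and with either anestrus pool left out. The spindle and cytokinesis group (18 tested, 0 called) also held KIF14, at -1.001 ± 0.50. Oligodendrocyte markers had the sign of ANLN, with 8 of 8 values positive and a median log2 fold change of 0.79, and their summed level was 3325 and 4456 CPM against 2824 and 1792 CPM, with 0 of 8 called. Their part in the ANLN value was not tested.

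Some markers of other cell types also differed between the groups. Another list joined 8 markers of thyrotrophs or of the pars tuberalis, the pituitary tissue next to the median eminence. These 8 summed to 5404 and 4424 CPM in the follicular pools and to 14630 and 11360 CPM in anestrus. Of the 7 tested, TSHB and CGA were called higher in anestrus and all 7 values were negative. None of the 8 was at 0. Within anestrus the sum, most of it CGA, was higher in pool 1, and NEK2 and SMC4 were higher in pool 2. TSHR (6.38 and 14.99 CPM in anestrus pools 1 and 2), MTNR1A (18.5 and 31.0 CPM) and POU1F1 (0.210 and 2.05 CPM) were also higher in pool 2. With 2 pools a gene can have only 1 of 2 orders, so nothing is read from pool order here. Of the other anterior pituitary hormone cell markers (0 of 6 tested called), which summed to 334 and 141 CPM against 387 and 277 CPM, 4 values were negative and 2 positive. FSHB was at 17.3 and 52.2 CPM against 75.5 and 117.3 CPM and was called under either replicate block. GH1 was at 1.81 and 13.1 CPM against 11.0 and 33.3 CPM and was called under the block by library names. POMC (170 and 37.8 against 260 and 92.0 CPM) and TBX19 (3.70 and 4.24 against 7.36 and 4.78 CPM) also had the higher mean in anestrus. LHB (118 and 27.9 against 31.9 and 20.8 CPM) and GNRHR (22.7 and 5.64 against 1.54 and 7.94 CPM) had the higher mean in the follicular pools. GNRHR was called under the block by titles. EZH2, the histone methyltransferase that dividing cells are known to express, was called at -2.98, with 32.8 and 26.5 CPM against 215 and 252 CPM. Meningeal and fibroblast markers summed to 782 and 868 CPM against 1329 and 1160 CPM (0 of 6 called, 4 at an unadjusted p under 0.05). DCN, the proteoglycan decorin, was at 263 and 321 CPM against 532 and 501 CPM (log2 fold change -0.82 ± 0.165, adjusted p = 0.115, edgeR) and was called in DESeq2, without the count filter, under the block by titles and with either anestrus pool left out. Of the erythroid markers, HBM was at 0 counts in all pools and AHSP was at 1.54 and 1.74 CPM against 6.52 and 3.66 CPM. The part of any of these cell types in the NEK2 and SMC4 differences was not tested.

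Among markers of oligodendrocyte precursors, microglia, vessels, lymphocytes, neural progenitors and tanycytes, edgeR called 0. DESeq2 called 1 of them, the precursor marker BCAS1, higher in the follicular phase. Oligodendrocyte precursor markers summed to 344 and 375 CPM in the follicular pools and to 268 and 246 CPM in anestrus, with 7 of 7 values positive, 4 at an unadjusted p under 0.05 and 0 called. Microglia and macrophage markers summed to 424 and 473 CPM against 362 and 384 CPM (0 of 8 called), and endothelium and pericyte markers to 423 and 487 CPM against 383 and 481 CPM (0 of 8 called). Lymphocyte markers lay between 27.6 and 36.8 CPM in all pools, with CD79B at 0 counts throughout, and immature neuron and progenitor markers between 40.8 and 44.9 CPM. Tanycyte and ependyma markers summed to 1002 and 918 CPM against 1171 and 1001 CPM, with 0 of 8 called. Astrocyte markers summed to 9480 and 10570 CPM against 5822 and 6050 CPM, with GFAP the 1 of 7 called. All 7 values were positive and all 7 had groups without overlap (38.3% of all genes). Of the 7, 5 had an unadjusted p under 0.05 (8.55% of all genes). Neuron markers, whose sums are given above, had 9 of 9 values positive, 3 at an unadjusted p under 0.05 and 0 called.

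The genes next to NEK2 and SMC4, named for their position in the RefSeq annotation of the ARS1.2 assembly, did not pass the test. IFT80 and TRIM59, which flank SMC4, had log2 fold changes of -0.36 ± 0.17 and -0.14 ± 0.24. LPGAT1, next to NEK2, had 0.10 ± 0.18. The microRNA genes MIR15B and MIR16B lie within the span of SMC4. The spans of 8 of the 43 placed members overlap another gene. Of these, PLK1 overlaps ERN2, CCNE2 overlaps INTS8 (-0.34 ± 0.17), TYMS overlaps ENOSF1 (0.42 ± 0.18), MCM7 overlaps AP4M1 (0.07 ± 0.21) and NCAPH overlaps ITPRIPL1 (-0.16 ± 0.365). The strand setting of the counting is not given in the sources used here, so the counts of these members may hold reads of the overlapping gene.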

How the data were processed

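The table the authors deposited holds unnormalized whole-number counts of reads per gene, here for pools of medio-basal hypothalamus RNA (2 follicular, 2 anestrus). TriReagent extraction and stranded Truseq mRNA libraries are recorded per the labels' protocols. The tools listed in the submitters' processing notes are featureCounts 2.0.0, SAMtools 1.9, TopHat2 2.1.1, Bowtie2 2.3.5.1, FastQC and bcl2fastq 2.20. Sources used here do not give the build, annotation, strand setting or treatment of multi-mapping reads, so no coordinates are printed. The RefSeq gene table of assembly ARS1.2 served for synonyms and neighbouring genes only.

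Genes passing edgeR's filterByExpr (minimum count 10, minimum total 15) were scaled by TMM and fitted with edgeR 4.0.16 in R 4.3.3 (robust quasi-likelihood fit, 1 mean per group, 2 residual degrees of freedom). Benjamini-Hochberg adjustment ran over all genes tested. Standard errors are the log2 fold change divided by the square root of its F statistic, and intervals are at 95%. Tests and intervals use the 2 residual degrees of freedom plus those that edgeR borrows from the spread of all genes. The fit was tested on simulated data. A count of 0 is taken to allow 3 counts. Alternatives were other scalings, other filters, DESeq2 1.42.0, limma-voom 3.58.1, a replicate block and leaving out each pool. Library names, not titles, number the anestrus pools, since the table's columns carry them and the titles number them the other way round.

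The 44 members, the other gene lists and the cell type markers were chosen with earlier results of these data known. All members are named, and from each other list the called genes or the 2 with the smallest p. Of 170 other cell division entries, CDCA5 and CDKN2A matched no symbol. The luteal libraries were not analysed here.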

Additional observations from a re-analysis of the deposited data

How the results depend on the processing

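With 2 pools per group the number of calls depends on the pools used. Beside 34 genes called in all, there were 300 with no count filter, 143 with the DESeq2 Wald test, and between 4 (without follicular pool 1) and 810 (without anestrus pool 1) when 1 pool was left out, where the lone pool is assumed to vary like the other group. A replicate block by library number gave 90 genes and by the titles' numbers 130, with NEK2 and SMC4 called under both and ANLN called in addition. Deviations of same-numbered pools from their group means correlated at 0.26 across genes by library number. By title the value is -0.26 by construction, since with 2 pools per group renumbering only flips the sign. Nothing in the labels says that the numbers pair goats. The count of members called was 1 in limma-voom, 0 to 2 when 1 pool was left out, and 2 under all other settings. Members without overlap numbered 25 to 30 with 1 pool left out, since 3 pools overlap less often.

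Of 531 member values under 13 alternatives, 492 kept direction and side of the threshold, 3 lost a call (NEK2 and SMC4, above) and 36 changed sign, none of them of a called gene. NCAPG was at 0.006 with DESeq2's size factors, 0.008 with library totals and 0.006 in DESeq2, and MCM5 at 0.175 in limma-voom and 0.063 with the block by titles. With 1 pool left out, log2 fold changes ran from -0.244 to 0.41 for SMC2, -0.166 to 0.095 for NCAPD2, -0.137 to 0.172 for NCAPG, -0.226 to 0.424 for NCAPH, -0.166 to 0.328 for BUB1 and -0.556 to 0.472 for BUB1B. They ran from -0.384 to 0.192 for CENPE, -1.071 to 0.395 for CENPF, -1.547 to 0.012 for BIRC5, -0.082 to 0.134 for CCND1, -0.142 to 0.494 for CCND3, -0.262 to 0.008 for CDK2 and -0.391 to 0.029 for CDK4. They ran from -0.445 to 0.515 for MCM2, -0.038 to 0.232 for MCM3, -0.123 to 0.285 for MCM4, -0.911 to 1.165 for MCM5 and -0.077 to 0.223 for MCM7. For RRM2 the range was -0.493 to 0.164, for TYMS -0.011 to 0.519, for MKI67 -0.292 to 1.353, for TOP2A -0.992 to 0.278 and for E2F1 -0.168 to 1.578. The cause of these changes was not tested. BIRC5 and CCNB2 were read from 6 to 20 counts per library and KIF11 from 7 to 20, and counts this low limit the precision of their values.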
